A study of Mus musculus with 12 samples.

Results

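The comparison described here is that of mifepristone plus NaCl with vehicle plus NaCl in cultured kidney duct cells, over all genes expressed in them. It takes 6 of the 12 RNA sequencing libraries of the study, 3 a side, chosen by the treatment named in the labels and by no measured value. The cells were IMCD3, an established line from the inner medullary collecting duct of the mouse, in the subclone called 53a, so every library comes from 1 clone. From knowledge of the study, the subclone carries a gene that mifepristone turns on, which encodes a dominant-negative form of a kidney transcription factor. The mifepristone plus NaCl cells and the vehicle plus NaCl cells both carried the inducible mutant, grew in low glucose DMEM with 10% fetal bovine serum, and received 100 mM added NaCl. The other 6 libraries, mifepristone alone and vehicle alone, had no added NaCl. No library comes from cells without the inducible mutant, so the action of mifepristone on its own receptors and that of the mutant cannot be told apart. Nothing in the labels says that the 3 libraries of a group (A, B and C) came from separate cultures, so the p-values cover only the spread among libraries, part or all of which may be technical.

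The mutated factor binds DNA as a dimer and keeps many genes of the tubule epithelium switched on, among them genes of the primary cilium, of cell adhesion and of solute transport. A dominant-negative form can occupy the same sites or pair with the normal protein and so removes its activity. The inner medulla is the saltiest part of the kidney, and its duct cells answer added NaCl by taking up and making organic osmolytes and by raising chaperones. The comparison asks which genes change on induction in cells that are already under this salt load. Since both sides received NaCl, the action of NaCl itself is in both and is not what is compared.

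Values are FPKM (fragments per kilobase of gene, scaled to the mapped fragments of the library) as the authors deposited them, and are listed in the order of libraries A, B and C. Fold changes are mifepristone plus NaCl over vehicle plus NaCl on the scale log2(FPKM + 0.5), which understates the change of genes near 0. A gene is called higher or lower at an adjusted p under 0.05 by limma over the 14044 genes with an FPKM of 1 or more in 3 or more of the 12 libraries. The reads behind the 6 libraries summed to between 41940955 and 49270776. The Pearson correlation of log2 values between libraries lay from 0.9953 to 0.9973 within the groups and from 0.9523 to 0.9557 between them, and the first principal component, on which the groups lay apart, took 90.0% of the variance. In bulk RNA, fewer cells of a kind and less RNA per cell cannot be told apart.

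Most expressed genes differed between the groups, and most of them by little. Of the 14044 genes tested, 8240 were called, which is 58.7%. Of these, 3766 genes (26.8% of those tested) were higher and 4474 (31.9%) lower in mifepristone plus NaCl cells. The median absolute log2 fold change of the called genes was 0.38, and 71.4% of them changed less than 1.5-fold. A change of at least 2-fold was reached by 583 higher genes (4.15% of those tested) and 353 lower genes (2.51%), and one of at least 4-fold by 118 higher (0.840%) and 46 lower genes (0.328%). The 3 libraries of one group did not overlap with those of the other in 31.9% of the genes tested with mifepristone plus NaCl higher and in 39.3% with it lower, so that such a separation is common here. The median log2 fold change over all genes tested was -0.034. Where the members of a list moved both ways, its median can lie near that value although single members changed much. The counts of every list below are to be read beside the 26.8% higher and 31.9% lower over all genes tested.

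**Figure D1:**
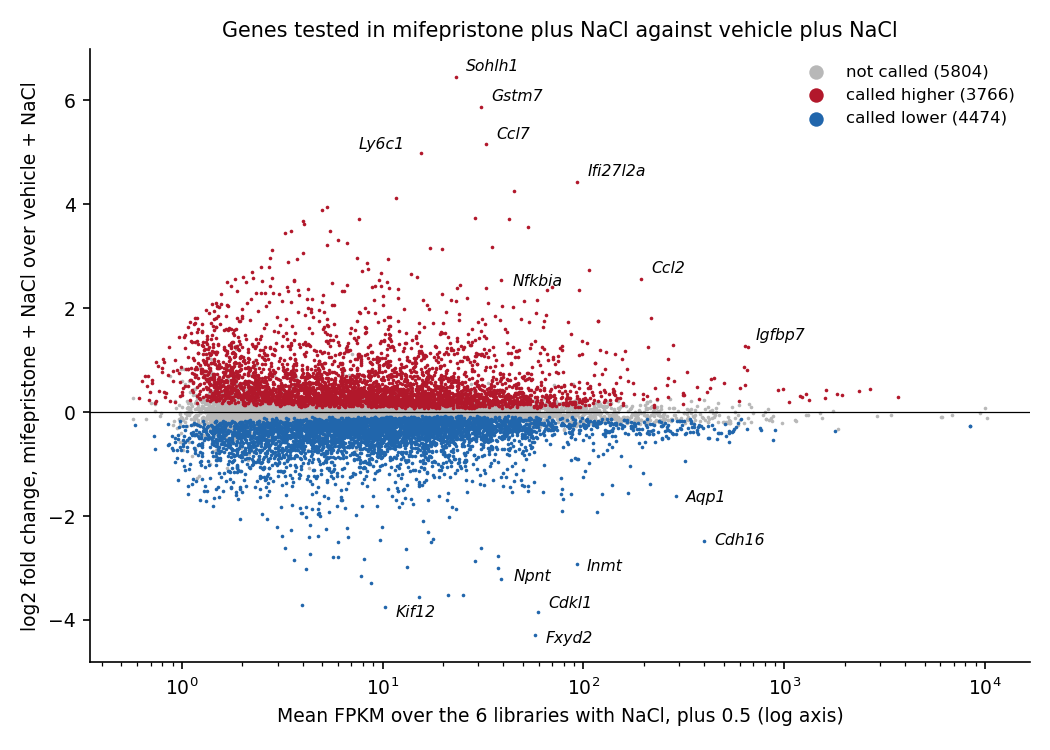
Each point is 1 of the 14044 genes tested, with the mean FPKM over the 6 libraries with NaCl plus 0.5 on a log axis across and the log2 fold change of mifepristone plus NaCl over vehicle plus NaCl up. Coloured points are called genes (3766 higher and 4474 lower), grey points are not called, and the named genes include Sohlh1 at the top (6.45) and Fxyd2 at the bottom (-4.28).

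The largest fall of all was that of Fxyd2, and those of Cdkl1 and Kif12 came next. Fxyd2, the gamma subunit that tunes the sodium pump, was at 5.01, 5.12 and 5.21 FPKM in mifepristone plus NaCl libraries, against 106, 106 and 114 FPKM in vehicle plus NaCl libraries. The groups lay far apart, with no vehicle plus NaCl library under 100 FPKM, and the fall was 19.5-fold (log2 fold change -4.28, SE 0.055, limma adjusted p = 1.7e-12). Cdkl1, a kinase gene tied to cilium length, was at 7.75, 6.82 and 7.06 FPKM in mifepristone plus NaCl libraries, against 112, 110.2 and 109 FPKM in vehicle plus NaCl libraries. Kif12, a kinesin of the primary cilium of tubule cells, was at 1.06, 0.806 and 0.929 FPKM with mifepristone plus NaCl and 19.2, 19 and 17.8 FPKM with vehicle plus NaCl. Neither gene had a mifepristone plus NaCl library near its vehicle plus NaCl libraries, and the falls were 14.4-fold (log2 fold change -3.85, SE 0.054) and 13.4-fold (log2 fold change -3.74, SE 0.059). Cdh6, a cadherin of developing tubules, was at 3.04, 2.41 and 3.22 FPKM with mifepristone plus NaCl and 34.5, 40 and 41.1 FPKM with vehicle plus NaCl, and Cdh16, the kidney-specific cadherin, at 125, 119 and 119.7 FPKM in mifepristone plus NaCl libraries, against 673, 672 and 684 FPKM in vehicle plus NaCl libraries. Cdh6 fell 11.5-fold. Cdh16 was among the most abundant genes of vehicle plus NaCl cells and fell 5.56-fold, which is outside the 20 largest falls by ratio.

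Further genes of cell surface and matrix stood among the 20 largest falls. Npnt, nephronectin, a basement membrane protein of the ureteric bud that kidney mesenchyme binds through an integrin, was at 7.13, 6.84 and 7.18 FPKM in mifepristone plus NaCl libraries, against 69.2, 69.5 and 70.8 FPKM in vehicle plus NaCl libraries, a fall of 9.32-fold. Itga1, an integrin chain that binds collagen, fell 6.23-fold, and the protease gene Adamts1, which cuts matrix proteoglycans, fell 6.78-fold. Prom1, prominin of membrane protrusions, was at 6.66, 6.33 and 6.46 FPKM with mifepristone plus NaCl and 49.5, 50.8 and 50.7 FPKM with vehicle plus NaCl and fell 7.28-fold. The tetraspanin gene Tspan8 fell 6.87-fold, the guidance cue gene Sema5a fell 7.88-fold, and Baiap2l2, which bends plasma membranes into protrusions, fell 7.06-fold. Cys1, cystin of the cilium membrane, which is mutated in the cpk mouse with cystic kidneys, was at 0.99, 0.944 and 0.86 FPKM in mifepristone plus NaCl libraries, against 8.99, 9.71 and 9.3 FPKM in vehicle plus NaCl libraries, a fall of 6.87-fold.

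Enzymes and signalling genes completed the group. Slc17a1, a phosphate and urate carrier, was at 3.77, 3.63 and 3.26 FPKM in mifepristone plus NaCl libraries, against 45.1, 46.1 and 46.3 FPKM in vehicle plus NaCl libraries. Sult1c2, a sulfotransferase gene, was at 1.3, 1.04 and 1.03 FPKM with mifepristone plus NaCl and 15.7, 15.5 and 14.7 FPKM with vehicle plus NaCl, and Inmt, which methylates indole amines, at 23.9, 19.2 and 19.9 FPKM with mifepristone plus NaCl and 166, 159 and 164 FPKM with vehicle plus NaCl. The falls were 11.4-fold, 9.75-fold and 7.63-fold. Prkaa2, the alpha2 catalytic subunit of the energy sensor AMPK, fell 8.92-fold, and Pde4c, a phosphodiesterase that removes cyclic AMP, fell 7.2-fold. S100g, the calcium-binding protein calbindin D9k, was at 0.136, 0.397 and 0.79 FPKM in mifepristone plus NaCl libraries, against 6.53, 6.3 and 7.67 FPKM in vehicle plus NaCl libraries and fell 8.1-fold. The metallothionein genes Mt1 and Mt2, whose products hold zinc, fell 7.97-fold and 11.7-fold.

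The authors' deposited table marks each gene that has a ChIP peak nearby, without the factor, distance or cells behind the mark being given in the sources used here. Of all genes tested, 3987 (28.4%) carried the mark in the authors' deposited table, and of genes not called 21.9%. By the authors' deposited table the mark was carried by 229 of the 353 genes that were lower by at least 2-fold (64.9%) and by 39 of the 46 that were lower by at least 4-fold (84.8%). Among higher genes the marked share in the authors' deposited table was 34.8% at 2-fold or more (203 of 583) and 33.9% at 4-fold or more (40 of 118). The share was thus higher the larger the fall, and nearly level over the rises, which was not tested. In the authors' deposited table Cdkl1, Kif12, Cdh6, Cdh16, Slc17a1, Sult1c2, Npnt, Prkaa2 and S100g carried the mark, and Fxyd2, Mt1, Mt2 and Umod did not.

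**Figure D2:**
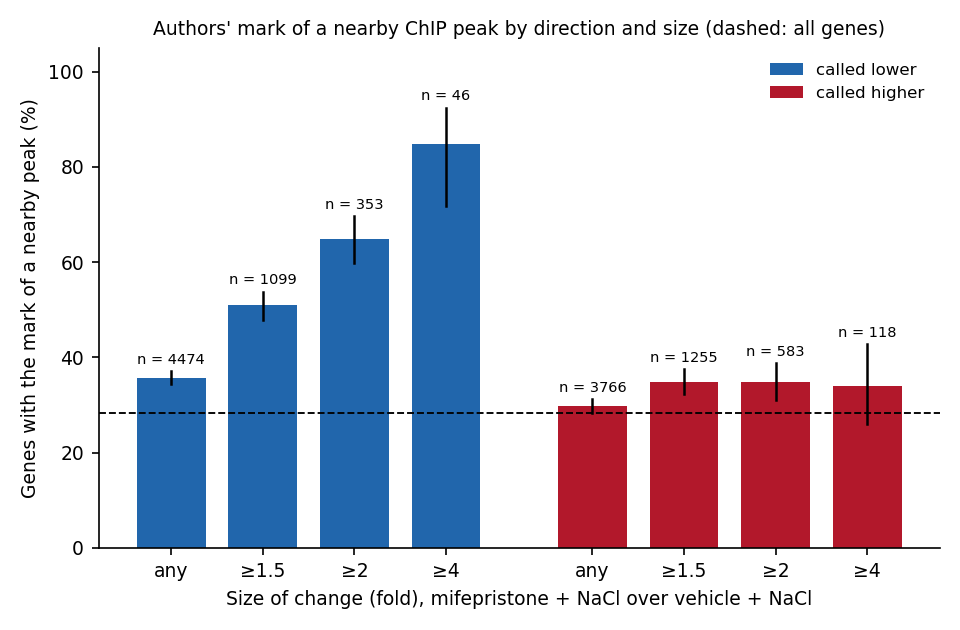
Bars give the percent of genes that the authors' deposited table marks as near a ChIP peak, for genes called lower and called higher by size of change in mifepristone plus NaCl over vehicle plus NaCl, with Wilson 95% intervals that cover counting error only. The dashed line is the 28.4% of all genes tested, and the share among lower genes runs up to 84.8% at 4-fold or more.

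The sequence that this kind of factor binds is known as a pair of inverted cores, GTTAAT and its reverse complement ATTAAC, with 1 base of any kind between them. RefSeq promoters (250 bases before to 50 after the start of a gene, build GRCm38.p6) could be matched by symbol to 8793 of the 13993 genes with a symbol of their own, which have 11213 promoters. A pair with up to 2 mismatches stood in 0.77% of these promoters, in 5.08% of the promoters of genes lower by at least 2-fold (16 of 315) and in 1.01% of those of genes higher by at least 2-fold. The pair reads the same on both strands. The core alone, on either strand, stood in 4.3% of all promoters, 8.9% of the promoters of genes lower by at least 2-fold and 4.2% of those of genes higher by at least 2-fold. A core that lies in a pair is counted in both shares. A match is a description of these letters and no evidence that the site is used, and a promoter without one says nothing of the factor. Of the 20 genes with the largest falls, 18 had a promoter in the table and 3 had a pair, Kif12, Slc17a1 and S100g. Stretches of 61 bases before the start of these and of 3 other genes that fell are shown 5′ to 3′ on the strand of the gene because they hold such a pair, which is in capitals.
Kif12: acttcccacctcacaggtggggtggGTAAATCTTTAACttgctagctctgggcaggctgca
Slc17a1: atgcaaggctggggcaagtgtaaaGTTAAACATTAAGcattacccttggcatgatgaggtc
S100g: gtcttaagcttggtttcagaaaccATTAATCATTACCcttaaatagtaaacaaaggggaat
Pkhd1: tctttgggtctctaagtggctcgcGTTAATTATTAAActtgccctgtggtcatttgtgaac
Nr1h4: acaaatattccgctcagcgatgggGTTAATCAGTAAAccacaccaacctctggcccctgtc
Kcnj16: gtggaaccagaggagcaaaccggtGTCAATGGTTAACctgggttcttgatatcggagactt
On GRCm38.p6 the stretch of Kif12 is chr4:63172132-63172192 on the minus strand, that of Slc17a1 chr13:23870188-23870248 on the plus strand and that of S100g chrX:162964631-162964691 on the minus strand. Those of Pkhd1 (chr1:20618100-20618160) and Nr1h4 (chr10:89506662-89506722) are on the minus strand, and that of Kcnj16 (chr11:110967944-110968004) is on the plus strand. The capitals of Pkhd1 hold 1 mismatch to the pair and those of the other 5 genes 2 mismatches. All 6 genes carry the mark of a nearby peak in the authors' deposited table, against 64.9% of all genes lower by at least 2-fold. Of the 16 promoters of such lower genes with a pair, 15 belong to marked genes and 1, that of Umod, to an unmarked gene.

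**Figure D3:**
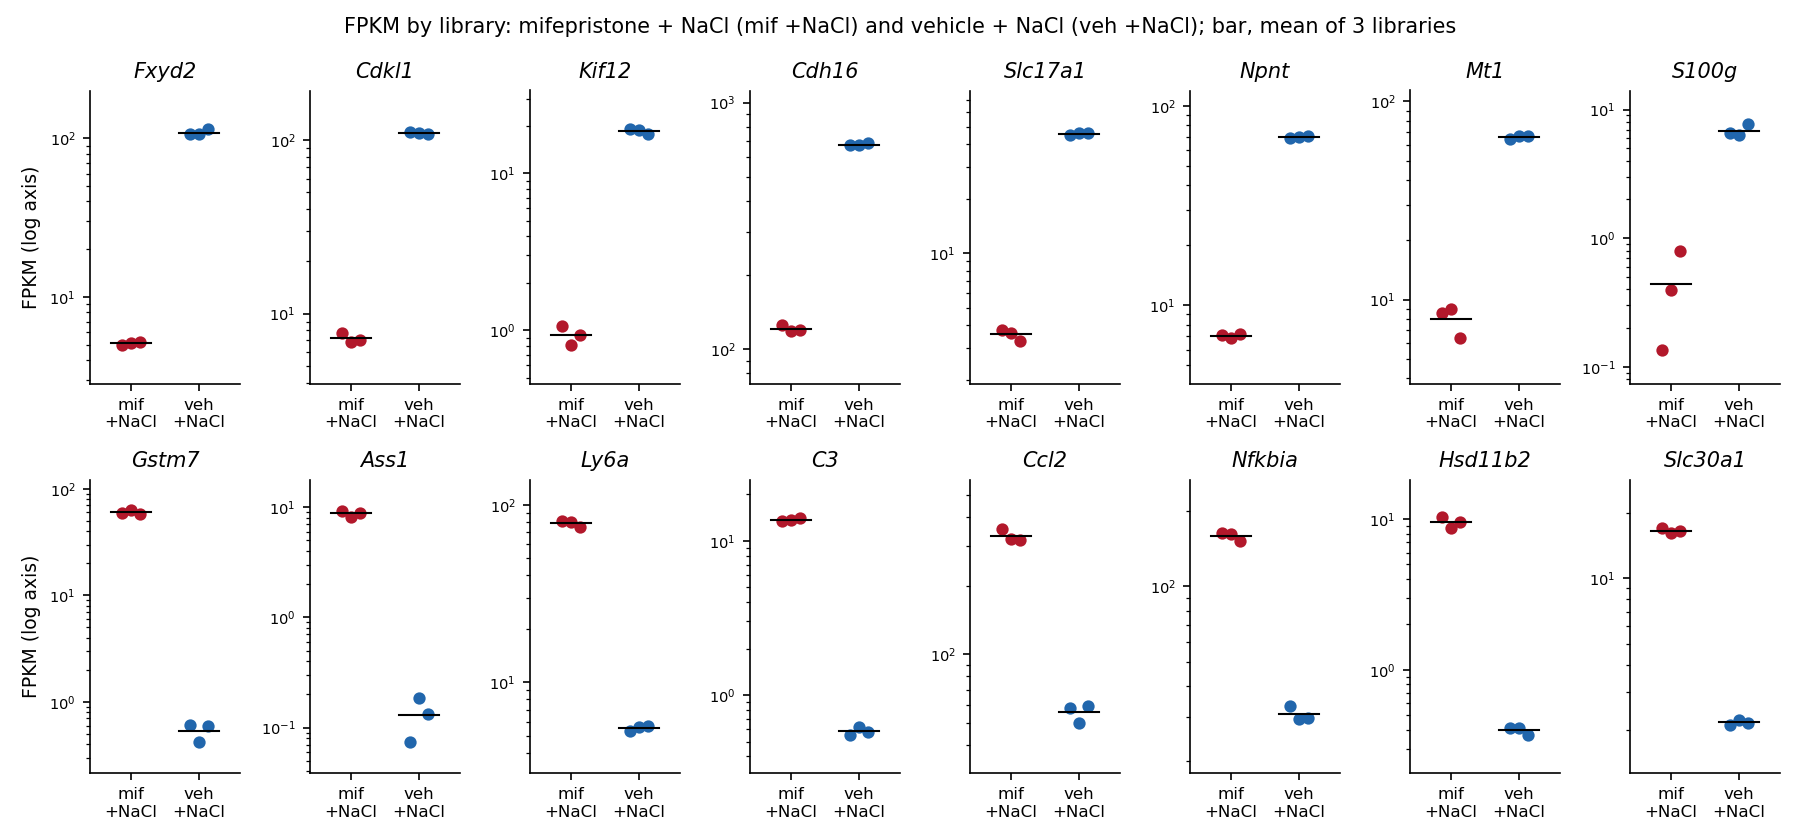
FPKM in each of the 6 libraries on a log axis for 16 genes, with mifepristone plus NaCl left of vehicle plus NaCl, 1 point a library and a bar at each group mean. In every panel the 3 points of one group lie apart from the 3 of the other. Cdh16, for example, had a mean of 121 FPKM in mifepristone plus NaCl and 676 FPKM in vehicle plus NaCl. Genes named among the 20 largest rises or falls were required to be separated in this way. Over all genes tested such a separation was seen in 31.9% with mifepristone plus NaCl higher and 39.3% with it lower.

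A list of genes that earlier work tied to the factor in kidney moved mostly down. Of its 18 tested members 2 were higher and 15 lower, with a median log2 fold change of -1.53, against 31.9% lower and -0.034 over all genes. The list was drawn up with earlier results of these data known. Kcnj16, a subunit of the basolateral potassium channel, was at 62.3, 60.8 and 60.6 FPKM in mifepristone plus NaCl libraries, against 181, 182 and 188 FPKM in vehicle plus NaCl libraries and fell 2.99-fold. Nr1h4, the bile acid receptor FXR, was at 1.63, 1.87 and 1.61 FPKM with mifepristone plus NaCl and 7.55, 6.77 and 6.39 FPKM with vehicle plus NaCl and fell 3.36-fold. Pkhd1, whose loss causes recessive polycystic kidney disease, fell 5.63-fold. Slc14a2, the urea carrier of the inner medullary duct, fell 2.8-fold, and Umod, uromodulin of the thick limb, fell 2.48-fold at levels under 1 FPKM in all 6 libraries. In the other direction Socs3, a brake on cytokine signalling, was at 16.5, 15.7 and 15.1 FPKM with mifepristone plus NaCl and 3.44, 3.33 and 3.38 FPKM with vehicle plus NaCl and rose 4.19-fold. Crb3, an apical polarity gene, was not called (log2 fold change -0.06, SE 0.06).

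Of 39 tested genes of intraflagellar transport, the BBSome and the ciliary zones 6 were higher and 23 lower, with a median of -0.20, against 26.8% higher, 31.9% lower and -0.034 over all genes. Beside Cdkl1, Kif12, Cys1 and Pkhd1, no member of the list fell as much as 2-fold on the scale of the test. Wdr35, of the retrograde transport complex, fell 1.51-fold, and Bbs2 of the BBSome rose 1.54-fold. Ift27 and Ift20, of the anterograde complex, were not called (log2 fold change -0.11, SE 0.073 and log2 fold change 0.10, SE 0.077).

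Atp1b1 and Atp1b3 encode beta subunits of the sodium pump that Fxyd2 regulates. Atp1b1 was at 506, 490.2 and 492 FPKM in mifepristone plus NaCl libraries, against 361, 354 and 365 FPKM in vehicle plus NaCl libraries and rose 1.38-fold. Atp1b3 rose 1.33-fold. Both moved less than 1.5-fold.

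Carriers of water, urea, salt and potassium moved both ways. Aqp1, the water channel of descending limbs and proximal tubules, was at 147, 138 and 139 FPKM in mifepristone plus NaCl libraries, against 442, 433 and 428 FPKM in vehicle plus NaCl libraries and fell 3.07-fold. Aqp5, another water channel, was near 0 in vehicle plus NaCl libraries, at 1.86, 2.1 and 2 FPKM with mifepristone plus NaCl and 0.403, 0.254 and 0.318 FPKM with vehicle plus NaCl, and rose 3.02-fold on the scale of the test. Aqp2 to Aqp4, the channels of principal cells, did not reach the filter and had group means under 1 FPKM on both sides. Among 18 sodium, chloride and bicarbonate genes 6 were higher and 10 lower. Slc4a11, a borate-transporter relative that moves protons and ammonia, was at 5.42, 5.33 and 5.9 FPKM with mifepristone plus NaCl and 24.1, 26.4 and 25.4 FPKM with vehicle plus NaCl and fell 4.27-fold, and the potassium-chloride cotransporter gene Slc12a4 fell 2.44-fold. Slc12a2, the sodium-potassium-chloride cotransporter that refills shrunken cells, was not called (log2 fold change -0.07, SE 0.046). Hsd11b2, Scnn1a and Slc26a4, each with a vehicle plus NaCl mean under 1 FPKM, were among the higher genes. Hsd11b2, which shields the mineralocorticoid receptor from cortisol and corticosterone, was at 10.3, 8.74 and 9.56 FPKM in mifepristone plus NaCl libraries, against 0.413, 0.41 and 0.367 FPKM in vehicle plus NaCl libraries, a rise of 11.2-fold. Scnn1a, the alpha subunit of the epithelial sodium channel, rose 1.78-fold, and Slc26a4, the anion exchanger pendrin, rose 3.53-fold. All 4 tested potassium channel genes of the list were called, against 58.7% over all genes. Kcnj16 and Kcnk1 (1.84-fold) were lower, and Kcnk5 (1.66-fold) and Kcnab2 (1.38-fold) were higher. Outside that list, the potassium channel genes Kcnt1, activated by sodium, and Kcnj2, an inward rectifier, rose 10.9-fold and 9.07-fold, with Kcnt1 at 5.56, 5.07 and 5.81 FPKM with mifepristone plus NaCl and 0.0495, 0.0585 and 0.029 FPKM with vehicle plus NaCl.

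Of 16 genes of organic osmolytes and their control 8 were higher and 5 lower, with a median of 0.22, against 26.8% higher, 31.9% lower and -0.034 over all genes. Sgk1, a kinase induced by serum, glucocorticoids and salt, was at 83.8, 83 and 80.9 FPKM in mifepristone plus NaCl libraries, against 32.2, 30.2 and 32.7 FPKM in vehicle plus NaCl libraries and rose 2.58-fold. Slc6a12, the betaine carrier, rose 2.19-fold. The list also holds Aqp1 and Slc14a2, whose falls of 3.07-fold and 2.8-fold were larger than its rises. Among 21 cytosolic chaperone genes 8 were higher and 2 lower, and 11 were not called. Bag3, a partner of HSP70 in clearing damaged protein, was at 26.8, 26.3 and 27 FPKM with mifepristone plus NaCl and 6.41, 6.29 and 6.55 FPKM with vehicle plus NaCl and rose 3.94-fold, and Hsph1, HSP110, rose 2.22-fold. Hspa1a and Hspa1b, near-identical copies of inducible HSP70 whose reads may be shared, rose 1.67-fold and 1.7-fold. Hsp90ab1, the constitutive HSP90, was not called (log2 fold change -0.10, SE 0.048).

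Genes of sterol synthesis and uptake were lower as a group. Of 25 genes of cholesterol synthesis and uptake 0 were higher and 23 lower, with a median of -0.82, against 31.9% lower over all genes. Hmgcs1, the step before the rate-limiting enzyme, was at 42.3, 41.2 and 38.5 FPKM in mifepristone plus NaCl libraries, against 116, 114 and 115 FPKM in vehicle plus NaCl libraries and fell 2.81-fold. Cyp51, which removes a methyl group from lanosterol, was at 25.2, 26 and 24.6 FPKM with mifepristone plus NaCl and 64.7, 63.7 and 64 FPKM with vehicle plus NaCl, a fall of 2.51-fold. Insig1, the sterol-regulated anchor of the pathway's transcription factor, fell 2.37-fold. Pmvk and Ebp were not called. Fatty acid synthesis showed fewer calls, with 18 tested genes of which 2 were higher and 7 lower (median -0.14). The elongase genes Elovl6 and Elovl7 fell 2.38-fold and 1.77-fold, Acly, which makes cytosolic acetyl-CoA, fell 1.62-fold, and Me1, malic enzyme, rose 1.52-fold. The desaturase genes Fads2 and Scd2, each over 100 FPKM, were not called (log2 fold change -0.13, SE 0.056 and log2 fold change 0.06, SE 0.054).

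Of 25 glycolysis and hypoxia-response genes 4 were higher and 16 lower, with a median of -0.33, against 26.8% higher, 31.9% lower and -0.034 over all genes. Slc2a1, the glucose carrier GLUT1, was at 47.1, 46 and 42.3 FPKM in mifepristone plus NaCl libraries, against 109, 109 and 108 FPKM in vehicle plus NaCl libraries and fell 2.39-fold. Egln3, an oxygen-sensing prolyl hydroxylase, fell 2.53-fold. Against these, Hif1a, the hypoxia factor itself, was at 369, 348 and 348 FPKM with mifepristone plus NaCl and 177, 169.5 and 178 FPKM with vehicle plus NaCl and rose 2.03-fold, Vegfa rose 1.92-fold, and Pfkfb3, which drives glycolysis through fructose 2,6-bisphosphate, rose 3.13-fold. Pkm, pyruvate kinase, was not called (log2 fold change -0.07, SE 0.05). Among 27 nuclear genes of oxidative phosphorylation 2 were higher and 9 lower (median -0.06), all by less than 1.5-fold, and among 32 ribosomal protein genes 1 was higher and 12 lower (median -0.17). Rpl23 of the large ribosomal subunit fell 1.33-fold.

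Amino acid and detoxifying enzymes held some of the largest changes in both directions. Of 19 genes of transsulfuration, serine, arginine and methionine metabolism 6 were higher and 10 lower. Ass1, which joins citrulline and aspartate in arginine synthesis, was at 9.31, 8.24 and 8.84 FPKM in mifepristone plus NaCl libraries, against 0.0742, 0.184 and 0.132 FPKM in vehicle plus NaCl libraries and rose 14.8-fold. Psat1, the aminotransferase of serine synthesis, was at 345, 339 and 327 FPKM with mifepristone plus NaCl and 97, 92.1 and 96.9 FPKM with vehicle plus NaCl and rose 3.52-fold, while Phgdh, the enzyme before it, was not called (log2 fold change -0.06, SE 0.068). Cbs, the entry to transsulfuration, was at 0.862, 0.904 and 0.836 FPKM with mifepristone plus NaCl and 6.58, 6.71 and 6.96 FPKM with vehicle plus NaCl and fell 5.3-fold, and Mtr, methionine synthase, fell 2.14-fold. Of 12 alcohol, aldehyde and conjugating enzymes 4 were higher and 6 lower. The retinoic acid-forming enzymes parted, with Aldh1a2 at 2.51, 2.47 and 2.44 FPKM with mifepristone plus NaCl and 16.1, 15.9 and 15.9 FPKM with vehicle plus NaCl, a fall of 5.53-fold, while Aldh1a1 rose 2.4-fold.

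Among 27 glutathione and NRF2-target genes 13 were higher and 9 lower, and the largest rises were in the mu class of glutathione transferases. Gstm7 was at 59.4, 63.1 and 57.6 FPKM in mifepristone plus NaCl libraries, against 0.601, 0.417 and 0.595 FPKM in vehicle plus NaCl libraries, Gstm2 at 94.4, 98.5 and 93 FPKM with mifepristone plus NaCl and 20.9, 20.3 and 21.4 FPKM with vehicle plus NaCl, and Gstm6 at 1.69, 1.79 and 1.9 FPKM with mifepristone plus NaCl and 0.0225, 0.0559 and 0.0426 FPKM with vehicle plus NaCl. The rises were 58.5-fold, 4.49-fold and 4.24-fold. These paralogs are alike in sequence, and how the authors' counting split shared reads is not given in the sources used here. Gclm, the modifier subunit of the enzyme that limits glutathione synthesis, fell 1.97-fold, Srxn1, sulfiredoxin, rose 2.29-fold, and Txnrd1 was not called (log2 fold change 0.07, SE 0.037).

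Of the 13 tested genes of metallothioneins and zinc carriers 5 were higher and 5 lower. Mt1 was at 8.53, 8.99 and 6.36 FPKM in mifepristone plus NaCl libraries, against 64.6, 67.3 and 66.9 FPKM in vehicle plus NaCl libraries, and Mt2 at 2.24, 2.01 and 1.51 FPKM with mifepristone plus NaCl and 27.6, 27.4 and 27.8 FPKM with vehicle plus NaCl. Slc30a1, the zinc exporter of the plasma membrane, was at 17.1, 16.2 and 16.5 FPKM in mifepristone plus NaCl libraries, against 2.11, 2.23 and 2.15 FPKM in vehicle plus NaCl libraries and rose 6.4-fold. Slc30a4, which loads zinc into vesicles, rose 2.39-fold, and the importer gene Slc39a10 rose 2.25-fold. Other zinc carriers were lower, namely Slc39a8 (1.55-fold), Slc39a1 (1.42-fold) and Slc30a7 (1.28-fold), so the carriers moved both ways.

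Many of the largest rises were in genes that vehicle plus NaCl cells hardly expressed. Sohlh1, a transcription factor gene of germ cells, was at 51.6, 44.7 and 39.8 FPKM in mifepristone plus NaCl libraries, against 0.0174, 0.0345 and 0.0164 FPKM in vehicle plus NaCl libraries. Its recovered reads were 8040 reads with mifepristone plus NaCl and 4 with vehicle plus NaCl. Tubb3, the neuronal beta-tubulin, was at 54.9, 53.1 and 52.3 FPKM in mifepristone plus NaCl libraries, against 3.51, 3.75 and 3.41 FPKM in vehicle plus NaCl libraries and rose 13.3-fold, and Prune2 at 6.17, 6.67 and 8.14 FPKM with mifepristone plus NaCl and 0.0895, 0.119 and 0.105 FPKM with vehicle plus NaCl with a rise of 12.3-fold. Tmem64, a membrane protein gene, was at 89.8, 82.8 and 84.1 FPKM with mifepristone plus NaCl and 4.04, 3.77 and 4.25 FPKM with vehicle plus NaCl and rose 19-fold. Pou2f3, the factor of tuft cells, rose 11.3-fold, and Stox2 rose 9.93-fold. In all of these the vehicle plus NaCl level was under 5 FPKM. Casp14, the caspase of skin barrier formation, rose 8.39-fold, and Sgpl1, which breaks down sphingosine 1-phosphate, was at 183, 182 and 191 FPKM with mifepristone plus NaCl and 27, 28 and 27.5 FPKM with vehicle plus NaCl and rose 6.65-fold.

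Surface proteins of the Ly6 family rose together in number. Of 9 tested Ly6 and uPAR family genes 7 were higher and 2 lower, against 26.8% higher over all genes, and the median was 1.32. Ly6a, known as Sca-1, was at 80.5, 79.8 and 75.1 FPKM in mifepristone plus NaCl libraries, against 5.31, 5.63 and 5.66 FPKM in vehicle plus NaCl libraries and rose 13.1-fold. Ly6c1 was at 29, 31.3 and 28.1 FPKM with mifepristone plus NaCl and 0.387, 0.385 and 0.568 FPKM with vehicle plus NaCl, a rise of 31.8-fold, and Ly6e at 158, 147 and 142 FPKM with mifepristone plus NaCl and 61.4, 57.9 and 58.5 FPKM with vehicle plus NaCl, a rise of 2.5-fold. Ly6c1 and Ly6c2 are close copies whose reads may be shared, and Ly6c2 rose 4.83-fold. Psca, prostate stem cell antigen of the same family, rose 8.99-fold.

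Interferon-stimulated genes were higher with few exceptions. Of 31 tested 29 were higher and 1 lower, with a median of 0.81, against 26.8% higher over all genes. Ifi27l2a was at 202, 170.4 and 162 FPKM in mifepristone plus NaCl libraries, against 7.2, 8.07 and 8.14 FPKM in vehicle plus NaCl libraries and rose 21.4-fold. Oas1a, an oligoadenylate synthetase that senses double-stranded RNA, was at 93.5, 83.1 and 83.1 FPKM with mifepristone plus NaCl and 37.2, 34.7 and 36.7 FPKM with vehicle plus NaCl and rose 2.37-fold. Cmpk2 rose 2.52-fold, Ifit1 rose 2.28-fold and Oasl2 rose 2.25-fold. Ifit3, of the same family and neighbourhood as Ifit1, went the other way, at 247, 209 and 201 FPKM in mifepristone plus NaCl libraries, against 437, 401 and 418 FPKM in vehicle plus NaCl libraries, a fall of 1.92-fold, and Parp14 was not called (log2 fold change 0.14, SE 0.098). In antigen presentation the changes were mixed, since among 20 MHC class I genes 9 were higher and 4 lower (median 0.10). The class I genes H2-T23 and H2-T22 rose 2.31-fold and 2.08-fold, while B2m, the shared light chain, was not called (log2 fold change -0.15, SE 0.089).

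**Figure D4:**
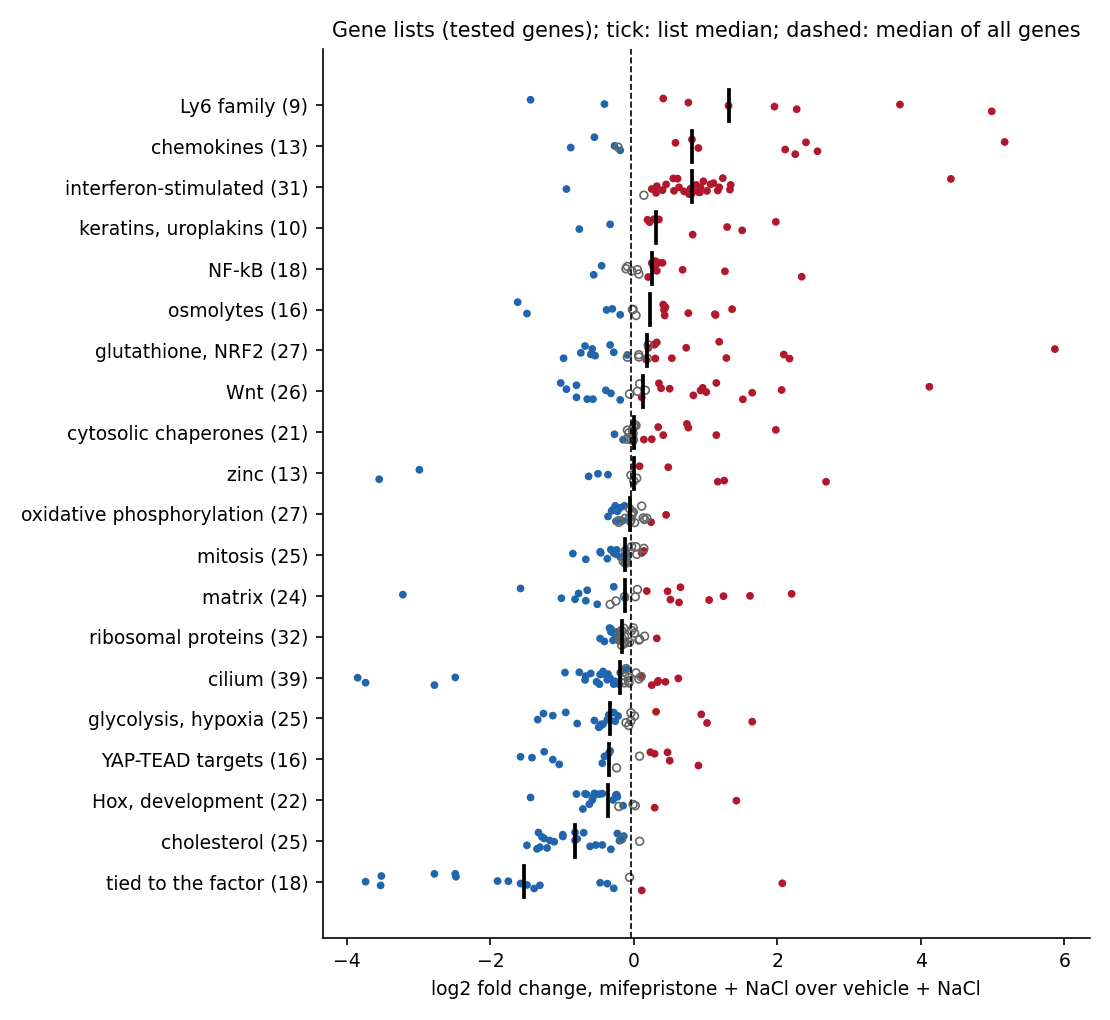
Each point is the log2 fold change of 1 tested gene of a list, mifepristone plus NaCl over vehicle plus NaCl, filled if called and open if not, with a vertical tick at the median of the list. The dashed line is the median of all genes tested (-0.034), and the interferon and cholesterol lists lie mostly on opposite sides of it (medians 0.81 and -0.82).

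Chemokine genes and inflammatory feedback genes held large rises. Of 13 tested chemokine genes 8 were higher and 4 lower, with a median of 0.81, against 26.8% higher and 31.9% lower over all genes. Ccl2, which draws monocytes, was at 354, 321 and 318 FPKM in mifepristone plus NaCl libraries, against 58.3, 49.9 and 59.4 FPKM in vehicle plus NaCl libraries and rose 5.89-fold, and its neighbour Ccl7 was at 69.6, 58 and 61 FPKM with mifepristone plus NaCl and 1.37, 0.75 and 1.82 FPKM with vehicle plus NaCl and rose 36-fold. Cxcl1, which draws neutrophils, was at 40.8, 41.1 and 35.2 FPKM in mifepristone plus NaCl libraries, against 7.86, 6.99 and 6.19 FPKM in vehicle plus NaCl libraries, a rise of 5.27-fold, and Ccl20 rose 4.77-fold. Among 18 NF-kB genes 11 were higher and 2 lower (median 0.26), against the same shares over all genes. Nfkbia, the inhibitor that NF-kB itself induces, was at 163, 162 and 151 FPKM with mifepristone plus NaCl and 33.4, 29.4 and 29.8 FPKM with vehicle plus NaCl and rose 5.08-fold, Csf1 rose 2.41-fold, and Ikbkb, a kinase of the pathway, fell 1.47-fold. Nfkb2 was not called (log2 fold change -0.09, SE 0.04). Il1r1, the interleukin-1 receptor, rose 8.87-fold.

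Among 11 complement, acute-phase and antimicrobial genes 6 were higher and 1 lower, and 4 were not called. Over all genes 26.8% were higher and 31.9% lower. C3, the central complement protein, was at 13.4, 13.6 and 14.1 FPKM in mifepristone plus NaCl libraries, against 0.553, 0.623 and 0.572 FPKM in vehicle plus NaCl libraries and rose 13.1-fold. Slpi, an inhibitor of neutrophil proteases, was at 9.23, 10.3 and 8.65 FPKM with mifepristone plus NaCl and 0.0949, 0.132 and 0.197 FPKM with vehicle plus NaCl and rose 15.4-fold. Among 20 genes of the SOCS family, STATs and their receptors 9 were higher and 7 lower. Jak2, a kinase bound to cytokine receptors, was at 27.6, 29.3 and 29.1 FPKM with mifepristone plus NaCl and 9.74, 9.41 and 9.36 FPKM with vehicle plus NaCl and rose 2.92-fold. Csf1r, the receptor of Csf1, was at 5.99, 5.96 and 6.38 FPKM with mifepristone plus NaCl and 17.6, 18.5 and 18.1 FPKM with vehicle plus NaCl and fell 2.81-fold, and Socs2 fell 2.42-fold. In prostaglandin metabolism (11 tested, of which 5 were higher and 3 lower) Ptgs1, cyclooxygenase-1, was at 13.9, 13.6 and 15.6 FPKM with mifepristone plus NaCl and 2.85, 2.95 and 2.68 FPKM with vehicle plus NaCl and rose 4.46-fold, Ptgds rose 2.7-fold, and the receptor gene Ptger4 fell 2.23-fold.

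Wnt pathway genes gave another large rise, in a receptor. Fzd4 was at 21.4, 21.3 and 22.3 FPKM in mifepristone plus NaCl libraries, against 0.733, 0.761 and 0.841 FPKM in vehicle plus NaCl libraries and rose 17.3-fold. Of 26 tested Wnt ligands, receptors and targets 13 were higher and 9 lower (median 0.13), against 26.8% higher and 31.9% lower over all genes. Lef1, a nuclear effector, and Axin2, a feedback target, rose 4.17-fold and 3.14-fold, with Axin2 at 1.68, 1.65 and 1.7 FPKM with mifepristone plus NaCl and 0.183, 0.174 and 0.219 FPKM with vehicle plus NaCl. Dkk3 rose 2.87-fold. In the Notch pathway (12 tested, of which 6 were higher and 4 lower) the ligand gene Jag1 was at 1.5, 1.36 and 1.49 FPKM with mifepristone plus NaCl and 7.56, 7.21 and 7.29 FPKM with vehicle plus NaCl and fell 4.02-fold, the receptor gene Notch1 fell 2.42-fold, and the target gene Hey1 rose 2.86-fold. Of 19 TGF-beta genes 10 were higher and 4 lower, with the ligand gene Tgfb1 lower (2.36-fold) and the BMP receptor gene Bmpr1a higher (3.02-fold). Of 16 YAP-TEAD target genes 5 were higher and 9 lower, with a median of -0.34. Ankrd1, a stretch-responsive nuclear protein, was at 39.6, 39.1 and 35.4 FPKM with mifepristone plus NaCl and 121, 115 and 109 FPKM with vehicle plus NaCl and fell 3-fold, and F3, tissue factor, fell 2.68-fold.

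Basement membrane genes moved both ways. Of 24 tested matrix genes 9 were higher and 10 lower (median -0.13). Lamb3, a chain of the laminin that anchors stratified epithelia, was at 21.1, 20.3 and 22 FPKM in mifepristone plus NaCl libraries, against 9.65, 10.1 and 10.2 FPKM in vehicle plus NaCl libraries and rose 2.06-fold. Col4a1 and Col4a2, the paired chains of the common collagen IV, rose 3.08-fold and 1.57-fold. Col18a1, which carries endostatin, was at 43.1, 40.5 and 44.9 FPKM with mifepristone plus NaCl and 126, 131 and 129 FPKM with vehicle plus NaCl and fell 2.98-fold. Lama5 of the mature kidney basement membrane was not called (log2 fold change -0.33, SE 0.16). All 10 tested keratins and uroplakins of the list were called, 8 higher and 2 lower (median 0.31), against 58.7% called over all genes. Krt8 of simple epithelia was at 209.6, 214 and 205 FPKM in mifepristone plus NaCl libraries, against 119.6, 115 and 121 FPKM in vehicle plus NaCl libraries and rose 1.77-fold, Krt80 rose 2.85-fold, and Krt7, of duct epithelia, fell 1.7-fold. In the cadherin and desmosome list (14 tested, of which 6 were higher and 6 lower) Cdh1, E-cadherin, and Cdh2, N-cadherin, rose 1.31-fold and 1.41-fold. Of 18 tight junction genes 6 were higher and 8 lower, with Cldn9 higher (2.26-fold), Cldn2 lower (2.13-fold) and Cldn4, the most abundant of those named, not called (log2 fold change 0.12, SE 0.063). Of 10 genes of epithelial and mesenchymal state 5 were higher and 3 lower, and the epithelial splicing factor genes Esrp1 and Esrp2 fell 1.91-fold and 2.28-fold.

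Developmental factors were lower in number, by small amounts. Of 22 tested Hox and kidney development genes 2 were higher and 17 lower, with a median of -0.36, against 31.9% lower over all genes. Pax8, a factor of the ureteric bud line and its tubules, was at 44, 41.4 and 42.4 FPKM in mifepristone plus NaCl libraries, against 58.1, 56.9 and 58.3 FPKM in vehicle plus NaCl libraries and fell 1.35-fold, Irx3 fell 2.71-fold, and Hoxa7 fell 1.75-fold. Sall1, of the kidney mesenchyme, went the other way and rose 2.69-fold. Among 18 nuclear receptor genes 5 were higher and 9 lower, with Rara, a retinoic acid receptor, lower (2.13-fold) and Nr4a1, an orphan receptor that responds within minutes to many stimuli, higher (4.18-fold). Among 14 genes of cyclic AMP turnover 4 were higher and 7 lower, with Pde4c and Pde4b (1.73-fold) lower and Pde4d higher (2-fold).

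Cell cycle genes moved little. Of 25 mitotic genes 2 were higher and 12 lower (median -0.12), with Bub1b, a spindle checkpoint kinase, at 23.2, 23.9 and 24.2 FPKM with mifepristone plus NaCl and 36.7, 39 and 38.8 FPKM with vehicle plus NaCl, a fall of 1.59-fold. Of 30 replication genes 6 were higher and 10 lower (median 0.02). Of 24 p53 and apoptosis genes 11 were higher and 8 lower, and Cdkn1a, the cell cycle inhibitor p21, was at 21.9, 24.6 and 21.5 FPKM with mifepristone plus NaCl and 61.4, 65.4 and 60.1 FPKM with vehicle plus NaCl and fell 2.71-fold. Myc fell 1.87-fold in a list of 18 AP-1 and early-response genes of which 7 were higher and 5 lower. Klf10, an early target of TGF-beta signals, rose 3.78-fold among 12 Krüppel-like factors of which 2 were higher and 6 lower. The remaining lists were the unfolded-protein genes (25 tested, of which 7 were higher and 10 lower), EGF family genes (10, of which 3 were higher and 4 lower), V-ATPase and carbonic anhydrase genes (19, of which 7 were higher and 5 lower), amino acid carriers (15, of which 4 were higher and 6 lower), organic ion carriers (13, of which 5 were higher and 4 lower) and S100 genes (10, of which 3 were higher and 3 lower). In these lists Xbp1 of the unfolded-protein response fell 1.94-fold, Car12 rose 1.93-fold, and the neutral amino acid carrier gene Slc6a19 fell 3.02-fold.

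By the difference of means in FPKM, rather than by ratio, abundant genes led. This ranking was taken among called genes that changed at least 1.5-fold, so abundant genes with a smaller change are not in it. The 10 largest losses of FPKM held Cdh16, Inmt and Aqp1, and also Anxa5, an annexin, at 120.1, 121 and 113 FPKM in mifepristone plus NaCl libraries, against 312, 302 and 313 FPKM in vehicle plus NaCl libraries (2.61-fold), and Cd63, a tetraspanin of late endosomes, at 85.3, 85.9 and 79.1 FPKM with mifepristone plus NaCl and 259, 241 and 244 FPKM with vehicle plus NaCl (2.96-fold). Plat, tissue plasminogen activator, was at 74.6, 76.9 and 76.7 FPKM with mifepristone plus NaCl and 201, 194 and 209 FPKM with vehicle plus NaCl and fell 2.64-fold. The 10 largest gains held Ccl2, Hif1a and Psat1, and also Igfbp7, a secreted growth factor binder, at 935, 922 and 845 FPKM in mifepristone plus NaCl libraries, against 384, 359 and 379.9 FPKM in vehicle plus NaCl libraries, a rise of 2.4-fold. Mrps6, a mitochondrial ribosomal protein gene, rose 2.38-fold, and Anxa1, an anti-inflammatory annexin, rose 1.57-fold.

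The effect of mifepristone with NaCl was set against that without NaCl by an interaction contrast over all 12 libraries. Without NaCl, 59.7% of the genes tested were called. The difference was called in 4374 genes (31.1%), 1915 positive (13.6%) and 2459 negative (17.5%). With voom on the recovered reads, which scales by total reads, the split was 2364 positive and 1989 negative, and without the mifepristone library C it was 3148 positive and 3636 negative. Of the 936 genes that changed at least 2-fold with NaCl, 855 (91.3%) were called in the same direction without it, 8 in the opposite one, and 73 were not called, and in 592 of them (63.2%) the sizes differed. Over all genes tested, 18.6% were called higher in both settings, 21.3% lower in both and 2.98% in opposite directions. A further 15.8% were called with NaCl and not without. Fxyd2 had the most negative difference (-4.25, SE 0.078, log2), but without NaCl it was at 0.0696, 0 and 0.0319 FPKM with mifepristone alone and 0.0365, 0.0707 and 0.0325 FPKM with vehicle alone. At that level no fall could be measured, so the difference restates the fall with NaCl. Slc17a1, S100g and Npnt fell further with NaCl (differences -2.51, -2.61 and -2.19). Without NaCl S100g averaged 0.116 FPKM with mifepristone alone and 0.324 FPKM with vehicle alone, and Slc17a1 0.285 FPKM with mifepristone alone and 1.08 FPKM with vehicle alone, levels at which the scale of the test understates a fall. Aqp1 fell less with NaCl (difference 1.06), with 5.7, 5.47 and 5.93 FPKM with mifepristone alone and 39.1, 37.7 and 40.4 FPKM with vehicle alone in the libraries without NaCl.

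On the scale of the test, several genes rose with NaCl present and not without it. Ppbp, a chemokine gene of platelets, was at 95.5, 99.1 and 95.7 FPKM in mifepristone plus NaCl libraries, against 7.65, 6.76 and 8.97 FPKM in vehicle plus NaCl libraries. Without NaCl it was at 2.42, 2.31 and 2.33 FPKM with mifepristone alone and 5.05, 4.83 and 3.99 FPKM with vehicle alone, so the direction was opposite, and the difference was 4.40, SE 0.13. S100b, Loxl4, Lrrn3 and Alox12e rose by 2.97, 2.41, 2.51 and 2.42 on the log2 scale with NaCl, against 0.10, -0.23, -0.01 and 0.10 without it, with differences of 2.87, 2.63, 2.52 and 2.32. Loxl4 crosslinks collagen, and S100b is a calcium-binding protein. Ccl7 and Gprc5b rose more with NaCl (differences 2.74 and 1.92). Rises that were smaller with NaCl were those of Saa3 (-2.80), Zfp750 (-2.68), Peg10 (-2.48) and Slpi (-1.80). In a voom fit of the whole reads, whose offset at low values is smaller, the difference of Alox12e turned to -0.24, and those of Ccl7 (0.41) and Slpi (-0.60) were no longer called. The rise of Zfp750 with NaCl (0.38) was not called after quantile normalization.

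Among genes called in opposite directions, Nr1h4 was lower with NaCl (-1.75) and higher without (1.06), a difference of -2.80, SE 0.1. Bsnd, the barttin subunit of kidney chloride channels, gave -1.17 with NaCl and 0.97 without (difference -2.14). Agt, angiotensinogen, gave 0.86 and -0.71 (difference 1.57), and Plau, urokinase, 0.65 and -1.09 (difference 1.74). Plat, the other plasminogen activator gene, moved the opposite way to Plau in each setting, with -1.40 with NaCl and 0.42 without (difference -1.82). The collagen IV pair Col4a1 and Col4a2 was higher with NaCl and lower without, with differences of 2.01 and 1.85. In the Hox and kidney development list 17 genes were lower and 2 higher with NaCl, against 31.9% and 26.8% over all genes. Without NaCl 7 of them were lower and 13 higher, against 31.5% and 28.3% over all genes. The difference was called negative in 14 of the 22 tested genes of the list, against 17.5% over all genes.

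**Figure D5:**
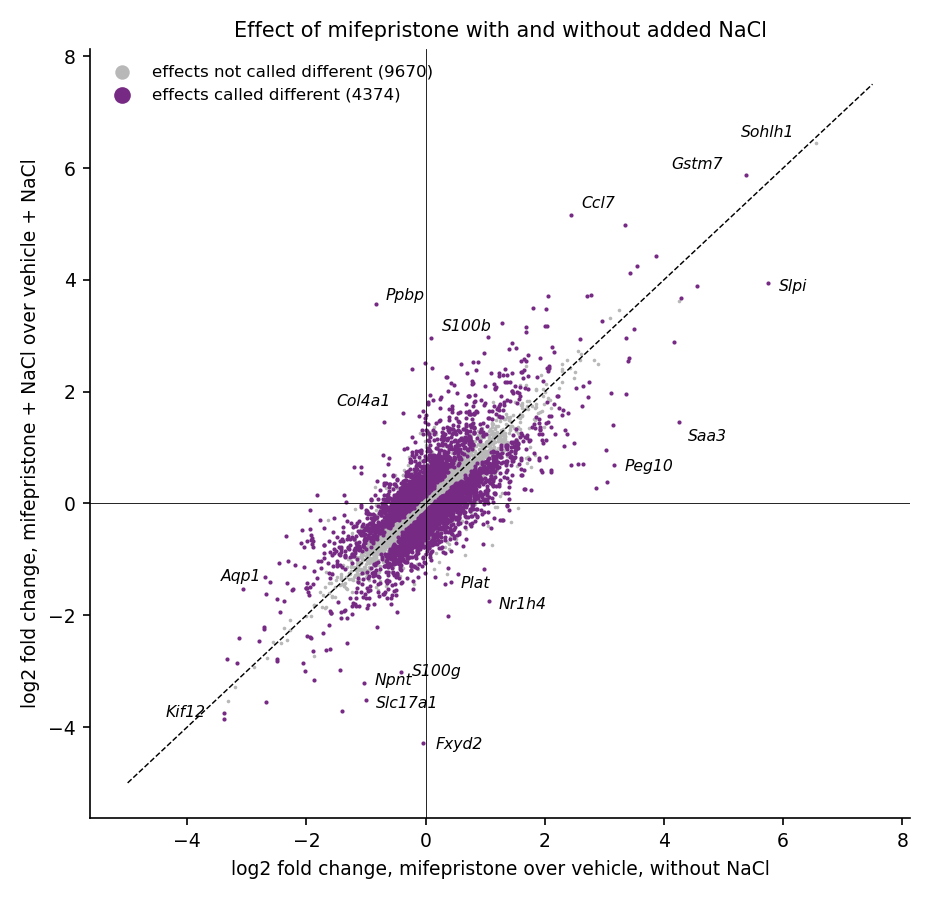
Each point is 1 gene tested, with the log2 fold change of mifepristone over vehicle without NaCl across and with NaCl up, and coloured points are genes whose 2 effects differ in the interaction test (4374). Ppbp lies at upper left and Fxyd2 at the bottom near 0 without NaCl, and points on the diagonal changed alike.

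Markers of duct, tubule and other cell types had summed levels of at most 52.8 FPKM in any list and moved in no common direction. Their part in the results above was not tested. Of 12 principal cell markers 3 passed the filter, and the summed level of the 12 was 12.7 to 13.9 FPKM with mifepristone plus NaCl and 4.03 to 4.24 FPKM with vehicle plus NaCl, which is mostly Hsd11b2. The summed level of 12 proximal tubule markers was 9.16 to 10.2 FPKM with mifepristone plus NaCl and 1.28 to 1.59 FPKM with vehicle plus NaCl, mostly Ass1, with Kap at 0 in all 6 libraries. For 11 intercalated cell markers it was 11.2 to 12.3 FPKM with mifepristone plus NaCl and 14.6 to 16.1 FPKM with vehicle plus NaCl, and for 11 thick limb and distal tubule markers 1.92 to 2.27 FPKM with mifepristone plus NaCl and 1.64 to 1.96 FPKM with vehicle plus NaCl. The 15 leukocyte markers summed to 16.7 to 18 FPKM with mifepristone plus NaCl and 49.3 to 52.8 FPKM with vehicle plus NaCl, mostly Cd14 and Csf1r, with Ptprc and Cd3e under 1 FPKM on both sides and Tyrobp at 0. The 10 fibroblast markers summed to 3.11 to 3.51 FPKM with mifepristone plus NaCl and 0.327 to 0.454 FPKM with vehicle plus NaCl, mostly Dcn, a matrix proteoglycan that rose 6.05-fold, with Col1a1 and Col3a1 under 1 FPKM. The 8 endothelial markers summed to 0.842 to 0.949 FPKM with mifepristone plus NaCl and 0.352 to 0.457 FPKM with vehicle plus NaCl, and none passed the filter. Aqp2, the defining marker of the principal cells of the duct, was at a mean of 0.0589 FPKM with mifepristone plus NaCl and 0.0105 FPKM with vehicle plus NaCl.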

How the data were processed

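Per the labels' protocols, a TruSeq kit turned poly(A) RNA of the cells into libraries. The submitters' processing notes name STAR 2.4.2a, Trimmomatic 0.32, DESeq2 1.12.3 and SAMtools 1.0, with GRCm38 as the build. How reads were counted, against which annotation and whether by strand is not given in the sources used here. For 48034 genes the authors deposited an FPKM value in each library. Their tables of comparisons add, per the file headers, the mean signal of each gene across the 12 libraries and whether a ChIP peak lies nearby. Columns that carry the mutant's name were given to the mifepristone samples through the letter, the NaCl part of the title and what is known of the study, which left 0 columns unassigned.

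The mean signal times the ratio of FPKM to mean FPKM gave whole reads for 100.0% of values within a tolerance of 0.05. Values of log2(FPKM + 0.5) were fitted in R 4.3.3 with limma 3.58.1, using robust and trended empirical Bayes and 4 group means over all 12 libraries (8 residual degrees of freedom) and the Benjamini-Hochberg method over 14044 genes. The fit was tested on simulated data. The gene lists and their members were chosen with earlier results of these data known. By the naming rule a gene is named for being among the 20 largest rises or falls or the 10 largest in FPKM. Further grounds are the 8 largest differences of each sign, 6 opposite genes and the 8 largest marked changes of each direction. Of each list up to 5 called and 2 uncalled members are named. The 20 largest and the marked changes were taken among called genes with a mean of at least 1 FPKM and groups that do not overlap. The 10 largest in FPKM were taken among called genes that changed at least 1.5-fold. Pkhd1, Slc39a8, Slc39a1, Slc30a7, genes in the described spans and genes named as markers at or near 0 were named after their values were seen, and not every gene of the rule is described. Some genes picked by this rule are not reported here. Lists were described by counts and medians without a test. Alternatives were other pseudocounts, filters, scalings, fits with only the 6 libraries, a stricter threshold, library weights, a replicate block, voom on the recovered reads, and leaving out each library. Coordinates come from GENCODE release M21 and sequences from RefSeq, both on GRCm38. Scripts used Python 3.11.15 with scipy 1.17.1, numpy 2.4.6, pandas 2.3.3 and, for the figures, matplotlib 3.10.9.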

Additional observations from a re-analysis of the deposited data

Results flagged for a closer look

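For the genes below, the effect of mifepristone differed between cells with and without added NaCl by the interaction test (limma, adjusted p under 0.05), and the value given is the log2 effect with NaCl minus that without. The difference was positive for Ppbp (4.40), S100b (2.87), Ccl7 (2.74), Loxl4 (2.63), Lrrn3 (2.52), Alox12e (2.32), Col4a1 (2.01), Gprc5b (1.92), Col4a2 (1.85), Plau (1.74), Agt (1.57) and Aqp1 (1.06). It was negative for Fxyd2 (-4.25), Nr1h4 (-2.80), Saa3 (-2.80), Zfp750 (-2.68), S100g (-2.61), Slc17a1 (-2.51), Peg10 (-2.48), Npnt (-2.19), Bsnd (-2.14), Plat (-1.82) and Slpi (-1.80). For Fxyd2, which was at or under 0.0707 FPKM in the 6 libraries without NaCl, no fall could be measured there, so its difference restates the fall with NaCl, and S100g and Slc17a1 were also low there. Among these, the differences of Alox12e, Ccl7 and Slpi changed in the voom fits, as given above. They kept sign and call with a pseudocount of 0.1 or 1, and the reason for the change with voom was not tested. In S100g the mifepristone plus NaCl libraries spread widely, at 0.136, 0.397 and 0.79 FPKM with mifepristone plus NaCl and 6.53, 6.3 and 7.67 FPKM with vehicle plus NaCl.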

How the results depend on the processing

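The counts of genes called higher (3766) and lower (4474) stayed within 1.5 times under the alternatives, except that 6088 genes were called higher with no filter on low values. Median-ratio scaling divides each library by a size factor. The mean log2 factor of mifepristone plus NaCl minus that of vehicle plus NaCl was -0.030, so fold changes moved up slightly. It gave 4159 higher and 4093 lower, and voom on the recovered reads gave 4224 and 4029. With an FPKM of at least 5 required in at least 3 libraries, which tests fewer genes, 375 genes were higher by at least 2-fold. Leaving out each of the 12 libraries in turn gave 3330 to 4163 higher and 3974 to 5072 lower genes, and 571 to 602 higher and 347 to 361 lower by at least 2-fold. For the difference between effects, the positive calls (1915) came to 1144 at an adjusted p under 0.01, 1174 with the stricter filter and 3377 with library quality weights, and the negative calls (2459) to 1474 at that threshold and 3779 with the weights. Leaving out each library gave 1547 to 3148 positive and 1954 to 3636 negative differences. The cause of these shifts was not tested. With a replicate block by library letter, 3567 genes were called higher and 4213 lower. The block changed no call of a named gene. Deviations of same-letter libraries from their group means had correlations of 0.17, -0.03 and 0.03, so the letters were not taken to pair libraries. The share with the authors' mark among lower genes was 50.9% at 1.5-fold or more and 84.8% at 4-fold or more, and 5.08% of the promoters of genes lower by at least 2-fold held paired cores, where 8.9% held a core. Of the 198 fold changes of named genes, 186 kept direction and call in every alternative, and 11 of the other 12 were uncalled genes that passed in some. Of 23 named differences, 20 did so, and with voom that of Alox12e turned to -0.24 or, with median-ratio size factors, -0.26. No list of at least 3 tested genes with a median of 0.2 or more in size changed the sign of its median. Depth limits the precision of genes near 0. Deviations of single libraries from their group mean had Spearman correlations with exon length from -0.29 to 0.36 across genes. For the log2 fold change with NaCl this correlation was -0.12. Its part in the small list medians was not tested.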

Other observations

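In 3 spans that hold neighbouring genes of 1 family each, chosen after their values were seen, the changes are described without a test, against 26.8% higher and 31.9% lower over all genes (coordinates GRCm38, levels as group means in FPKM). On chromosome 15, between 74714839 and 75111970, 9 genes were tested, and 6 were higher and 3 lower. Those higher were Psca (30.3 FPKM with mifepristone plus NaCl and 2.94 with vehicle plus NaCl), Ly6d (1.6 and 0.039), Ly6e (149 and 59.2), Ly6a (78.5 and 5.53), Ly6c1 (29.5 and 0.447) and Ly6c2 (2.11 and 0.0399), in the same order of groups. Among and beside them Them6, a gene of another family, Lypd2 and Lynx1 were lower (log2 fold changes -0.21, -1.44 and -0.24).

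On chromosome 3, between 107895821 and 108017973, all 6 tested mu-class glutathione transferase genes were higher. In the order of the chromosome their log2 fold changes were 1.29 (Gstm5), 5.87 (Gstm7), 2.09 (Gstm6), 0.53 (Gstm3), 2.17 (Gstm2) and 0.20 (Gstm1), so the size of the rise was uneven. The other tested gene in the span, Gm12497, was not called.

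On chromosome 19, between 34550694 and 34650009, the 6 tested Ifit genes split. Ifit2 (0.45), Ifit1bl1 (1.85), Ifit1bl2 (1.33) and Ifit1 (1.19) were higher, while Ifit3 (-0.94) and Ifit3b (-1.03), which are close copies of each other whose reads may be shared, were lower. Ifit3 and Ifit3b lie between the higher genes, and their vehicle plus NaCl levels, 419 and 229 FPKM, were the highest of the span, against 219 and 112 FPKM with mifepristone plus NaCl.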
